A study of Homo sapiens with 12 samples.

Results

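The interleukin-1 family ligands and antagonists examined here are IL1A, IL1B, IL1RN, IL18, IL33, IL36G, IL36B and IL36RN, chosen by gene symbol, 8 of the 60675 genes in the expression table. MCF10A, an immortalized and non-tumorigenic human mammary epithelial line, was profiled by RNA sequencing as 12 libraries in 6 groups of 2 biological replicates. The groups were IL1R1-KO cells, IL1RAP-KO cells and wild-type (WT) cells after a single 20 Gy dose of X-ray radiotherapy (RT), and untreated IL1R1-KO, IL1RAP-KO and WT cells. The KO cells were puromycin-selected pools, not clones, made with pLentiCRISPRv2 guides against the interleukin-1 receptor (IL1R1) or its accessory protein (IL1RAP), and the WT cells were described as wild type or parental. The names of the WT libraries carry the mark v2, which the sources used here do not explain, so whether WT cells had been through the vector and selection is not known. All groups grew in medium with epidermal growth factor, cholera toxin, insulin, hydrocortisone and horse serum. The time between RT and RNA collection was not given in the sources used here, nor which guide each library carried.

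IL-1α (IL1A) and IL-1β (IL1B) are agonists that bind IL1R1, which then recruits IL1RAP and signals through MYD88 and IRAK kinases to NF-κB. IL1RN encodes the receptor antagonist, which occupies IL1R1 without recruiting IL1RAP. IL-18, IL-33 and the IL-36 cytokines act through other receptors of the same family, IL-33 and the IL-36 cytokines with IL1RAP as the shared partner, and IL36RN is the antagonist of the IL-36 receptor. In epithelia, IL-1α and IL-33 are held in cells and released on damage, while IL-1β and IL-18 are made as precursors that caspase-1 can cleave.

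Of the 8 genes, 4 reached 1 TPM (reads per gene length, scaled to the same total in every library) in at least 2 libraries and were tested: IL1A, IL1B, IL1RN and IL18. IL36G reached 1 TPM in 1 library, IL33 stayed at or below 0.21 TPM, and IL36B and IL36RN were listed at 0 TPM in all 12 libraries. Levels below are TPM divided by a trimmed mean factor per library (scaled TPM), and differences are log2 fold changes of scaled TPM plus 1, which understate changes of low genes such as IL1RN. Calls needed both a fold change over 2 and a Benjamini-Hochberg adjusted p under 0.05, taken over the 15303 genes tested with limma.

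Several features of the libraries differed between irradiated and untreated cells. Transcripts encoded by the mitochondrial genome took 36.9 to 57.0% of TPM after RT and 18.3 to 21.1% in untreated cells, and the highest share was in IL1RAP-KO RT replicate 2, whose group also had the lowest correlation between replicates (r = 0.972 across tested genes, against 0.982 to 0.989 in the other groups). All 12 basal mammary epithelial markers checked passed the filter, and their summed TPM was 4402 to 4960 with the IL1R1-KO label, 2852 to 3802 in IL1RAP-KO cells and 2724 to 2754 in WT cells after RT, against 5132 to 5989 in all untreated cells. KRT5 weighed most in these sums, averaging 2775 TPM without RT and 1285 TPM after RT with the IL1R1-KO label. The markers did not fall as a set in the KO lines. Their median change with RT was 0.16 log2 units with the IL1R1-KO label, 0.02 in IL1RAP-KO cells and -0.41 in WT cells. Of 12 leukocyte markers, 3 passed (CD14, CSF1R and FCER1G), AIF1 and TYROBP were at 0 in every library, and their summed TPM was 23.5 to 73.5 after RT and 8.76 to 24.4 in untreated cells. Of 7 fibroblast markers, 2 passed (COL1A1 and DCN), and COL1A2 was at 0 in every library. The list summed to 39.5 to 78.4 TPM after RT and 18.8 to 24.6 TPM in untreated cells, most of it DCN. The part of these shares and markers in the results was not tested. IL1RAP mRNA averaged 4.69 ± 0.401 scaled TPM in untreated IL1RAP-KO cells and 19.4 ± 1.91 in WT cells (SD, n = 2 each). For IL1R1 mRNA the untreated libraries with the IL1R1-KO label averaged 9.42 ± 2.27 scaled TPM and WT cells 10.1 ± 0.854 (SD, n = 2 each), so transcript levels did not check that label, and directions drawn from it below rest on the label. The study blotted IL1RAP protein, which was depleted in its IL1RAP KO cells, but found no suitable antibody for IL1R1. Loss of IL1R1 protein was therefore not measured directly, and the study used the response to IL-1 as its check. It reports that IL1R1 and IL1RAP KO cells resisted the loss of the NF-κB inhibitor IκBα after IL-1α or IL-1β. Since these are bulk libraries, fewer cells of a type and less RNA per cell cannot be told apart.

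Of the members, 6 lie in 1 gene cluster on chromosome 2, which holds both agonists of IL1R1 as well as members listed at 0. Positions are from GENCODE release 44 on GRCh38. Within 360.1 kb lie 9 IL-1 family genes and no other protein-coding gene, in the order IL1A, IL1B, IL37, IL36G, IL36A, IL36B, IL36RN, IL1F10 and IL1RN. IL1A (chr2:112773925-112784493) and IL1B (chr2:112829751-112836816) are read from the minus strand at one end, and IL1RN (chr2:113099315-113134016) from the plus strand at the other. The members between them are IL36G (chr2:112973203-112985658), IL36B (chr2:113022089-113052867) and IL36RN (chr2:113058638-113065382). IL18 (chr11:112143253-112164096) overlaps a protein-coding gene model on the opposite strand, and the strand setting of the authors' counting was not given in the sources used here. IL33 lies at chr9:6215786-6257983.

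**Figure D1:**
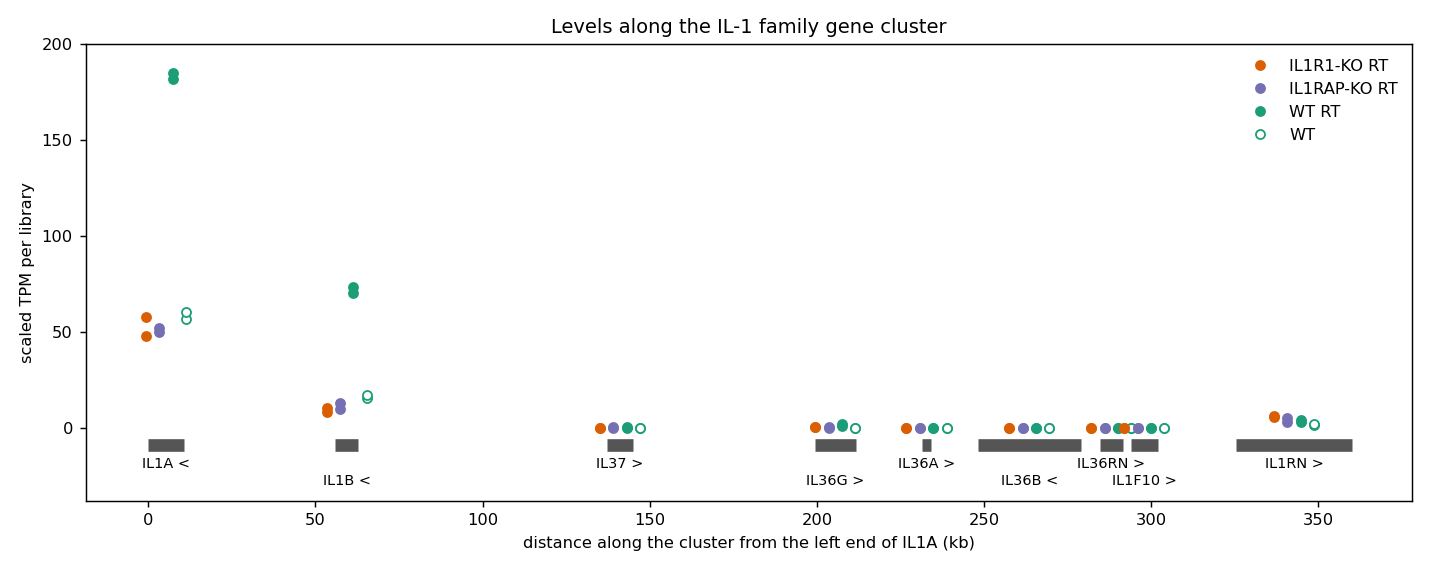
Levels along the interleukin-1 family cluster of chromosome 2. Points are the scaled TPM of single libraries (y axis) at each gene's place in kb from the left end of IL1A (x axis), bars are gene bodies and arrowheads give the strand, for IL1R1-KO RT, IL1RAP-KO RT, WT RT and WT cells. IL1A and IL1B, at one end of the 360.1 kb cluster, stand highest (182 and 185 scaled TPM for IL1A in WT RT cells), and the genes between IL1B and IL1RN lie at or near 0.

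The start-site windows of the 3 cluster genes that were tested are printed because IL1A and IL1B shared their pattern over the groups and IL1RN had another. They are RefSeq promoter windows of GRCh38.p14, from 250 bases before to 50 bases after an annotated start, read in the direction of transcription. The IL1A window is chr2:112784444-112784743 and the IL1B window chr2:112836730-112837029, both on the minus strand. The IL1RN windows shown are chr2:113117721-113118020 and chr2:113127239-113127538 on the plus strand, at different annotated starts. Another IL1A window (chr2:112784351-112784650) and another IL1RN window (chr2:113127348-113127647) overlap those shown, hold the same matches at other distances from their starts and are not printed. Capitals mark matches, on either strand, to an NF-κB motif (GGG, any 5 bases, CC), an AP-1 motif (TGANTCA), a C/EBP motif (TTGCNNAA) or an interferon response element (TTTC, any 2 bases, TTTC).
IL1A: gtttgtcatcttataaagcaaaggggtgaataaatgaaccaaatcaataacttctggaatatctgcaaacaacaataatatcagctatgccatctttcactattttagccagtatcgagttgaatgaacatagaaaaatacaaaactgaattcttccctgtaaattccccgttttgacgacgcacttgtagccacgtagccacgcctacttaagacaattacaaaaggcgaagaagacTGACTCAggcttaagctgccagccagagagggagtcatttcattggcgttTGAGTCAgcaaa
IL1B: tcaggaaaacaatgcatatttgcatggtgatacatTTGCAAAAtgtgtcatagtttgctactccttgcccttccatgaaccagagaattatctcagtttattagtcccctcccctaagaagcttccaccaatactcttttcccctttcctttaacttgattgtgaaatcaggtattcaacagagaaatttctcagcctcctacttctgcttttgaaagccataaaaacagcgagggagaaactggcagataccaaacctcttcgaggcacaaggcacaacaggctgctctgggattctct
IL1RN, first window: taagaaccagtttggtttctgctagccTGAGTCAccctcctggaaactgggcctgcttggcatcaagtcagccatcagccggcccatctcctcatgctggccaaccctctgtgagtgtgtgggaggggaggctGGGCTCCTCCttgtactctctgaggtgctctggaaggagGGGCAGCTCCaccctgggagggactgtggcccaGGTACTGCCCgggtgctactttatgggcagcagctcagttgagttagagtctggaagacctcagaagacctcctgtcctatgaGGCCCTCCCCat
IL1RN, second window: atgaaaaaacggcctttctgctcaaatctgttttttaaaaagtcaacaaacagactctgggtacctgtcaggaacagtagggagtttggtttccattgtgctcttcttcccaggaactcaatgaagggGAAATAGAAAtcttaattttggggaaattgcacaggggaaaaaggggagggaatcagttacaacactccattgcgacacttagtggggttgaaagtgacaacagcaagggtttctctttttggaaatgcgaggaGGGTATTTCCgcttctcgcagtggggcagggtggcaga

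The IL1A window held AP-1 matches 12 bases before and 38 bases after the start, and the IL1B window a C/EBP match 215 bases before it. The first IL1RN window held 4 NF-κB matches, at 117, 78 and 45 bases before and 38 bases after the start, and an AP-1 match 223 bases before it. In the second IL1RN window an interferon response element match lay 122 bases before the start and an NF-κB match 12 bases after it. No match overlapped another in these windows. Of 35116 RefSeq promoter windows of this length, 58.7% held the NF-κB motif, 7.71% the AP-1 motif, 10.5% the C/EBP motif and 3.57% the interferon response element, so the NF-κB letters in particular are common. The matches describe letters, not occupied sites. The table used held no window for IL18 or IL36B.

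Both agonist mRNAs were lower in each KO line after RT than in WT cells after RT, and higher in WT cells after RT than without it. IL1A had 47.9 and 57.9 scaled TPM in cells labelled IL1R1-KO after RT, 49.98 and 52.2 in IL1RAP-KO cells after RT, and 182 and 185 in WT cells after RT. Without RT, it had 33.2 and 31.5 scaled TPM with the IL1R1-KO label, 31.0 and 35.1 in IL1RAP-KO cells, and 56.9 and 60.2 in WT cells. The WT RT libraries stood above all others, the 4 untreated KO libraries lay below all others, and the irradiated KO libraries reached into or just under the range of untreated WT cells.

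With RT, IL1A changed by 0.69 log2 units in cells labelled IL1R1-KO (SE 0.10, limma Benjamini-Hochberg adjusted p = 0.00038) and by 0.62 in IL1RAP-KO cells (SE 0.10, limma adjusted p = 0.00072). These changes passed the adjusted threshold but not the fold of 2, and with TPM as deposited the IL1RAP-KO change was 0.28 (limma adjusted p = 0.091). In WT cells, IL1A was 3.09-fold higher after RT than without it (log2 fold change 1.63, SE 0.10, limma adjusted p = 2.4e-06). The test of the difference between responses gave -0.94 (SE 0.14, limma adjusted p = 0.0095) for IL1R1-KO minus WT, short of the fold threshold, and -1.01 (limma adjusted p = 0.010) for IL1RAP-KO minus WT, which was called. The IL1R1-KO value was -0.89 without WT replicate 1 (limma adjusted p = 0.059), -0.65 with TPM as deposited (limma adjusted p = 0.099) and -0.59 with libraries scaled to the sum of nuclear genes (limma adjusted p = 0.034), and without IL1R1-KO RT replicate 2 it passed both thresholds (-1.08, limma adjusted p = 0.012). The IL1RAP-KO call was lost without WT replicate 1, WT replicate 2, IL1RAP-KO replicate 2 or WT RT replicate 1 (adjusted p of 0.053 to 0.062), and without IL1RAP-KO RT replicate 1 its value was -0.98. With libraries scaled to the sum of nuclear genes it was -0.75, under the fold threshold. Under that scaling the median of all tested genes in these differences was itself 0.29 for IL1R1-KO and 0.21 for IL1RAP-KO.

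IL1B, the agonist that is released after cleavage, had the wider range. It had 8.35 and 10.2 scaled TPM in cells labelled IL1R1-KO after RT, 12.7 and 10.0 in IL1RAP-KO cells after RT, and 70.3 and 73.3 in WT cells after RT. Without RT, the levels were 6.73 and 8.84 with the IL1R1-KO label, 7.78 and 8.54 in IL1RAP-KO cells, and 15.5 and 17.1 in WT cells. All 8 KO libraries, irradiated or not, were below both untreated WT libraries. The irradiated libraries of the IL1R1-KO label overlapped with the untreated ones, whereas those of IL1RAP-KO cells did not.

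The change of IL1B with RT was 0.23 log2 units in cells labelled IL1R1-KO (95% interval -0.12 to 0.58, limma adjusted p = 0.24), 0.43 in IL1RAP-KO cells (limma adjusted p = 0.044, up to 0.21 when 1 library was left out) and 2.08 in WT cells (SE 0.16, limma adjusted p = 7.4e-06). The difference between responses was -1.84 for IL1R1-KO minus WT (SE 0.22, limma adjusted p = 0.0027) and -1.65 for IL1RAP-KO minus WT (limma adjusted p = 0.0088), and both were called. Among the 4 tested members, 2 were called higher in WT RT than in WT cells (IL1A and IL1B), where 7.02% of all tested genes were called higher and 6.23% lower. In IL1RAP-KO RT against IL1RAP-KO cells 0 of 4 were called, where 17.4% of genes were called in either direction, although all 4 had an unadjusted and an adjusted limma p under 0.05. In the differences between responses, 1 member was called lower for IL1R1-KO (0.954% of genes called lower) and 2 for IL1RAP-KO (0.673% of genes called lower).

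**Figure D2:**
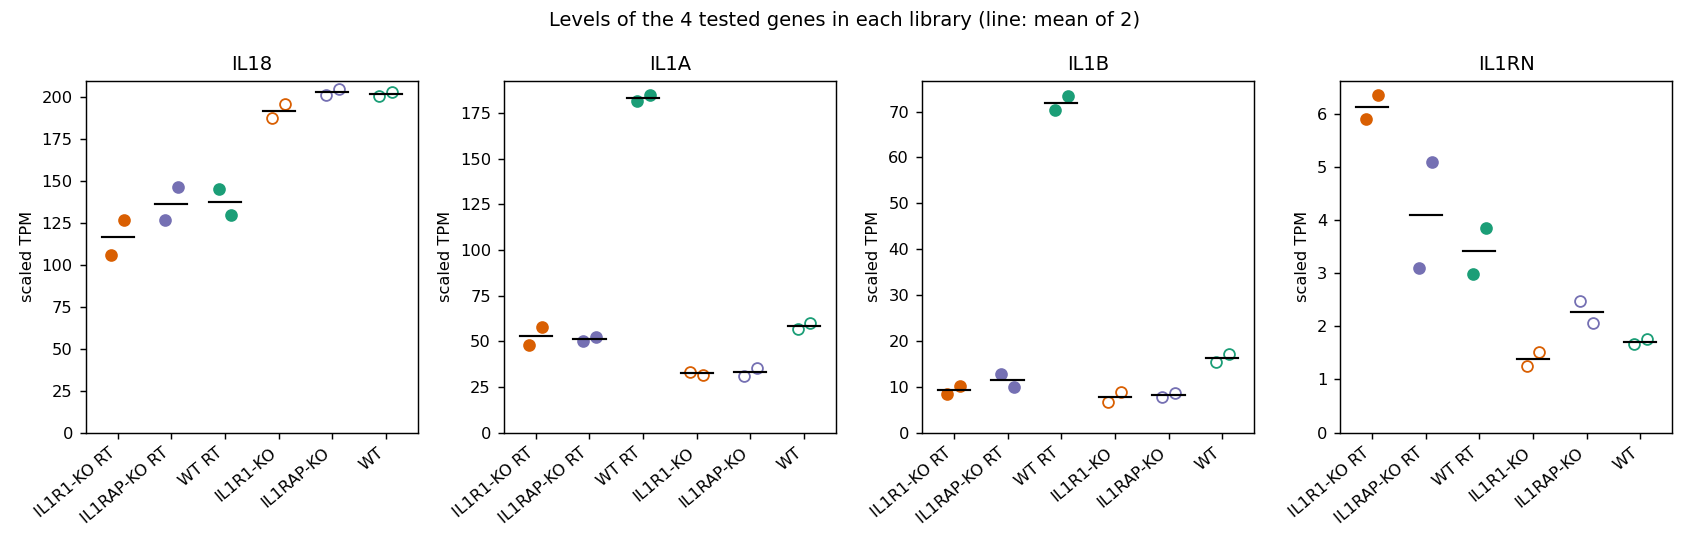
Scaled TPM (y axes, starting at 0) of IL18, IL1A, IL1B and IL1RN in each library of the 6 groups (x axes), with filled points for RT, open points for untreated cells and a line at the mean of 2 libraries. IL1A and IL1B stand apart in WT RT cells (182 and 185, and 70.3 and 73.3), IL1RN is highest in cells labelled IL1R1-KO after RT (5.90 and 6.37), and IL18 is lower in every irradiated group.

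After RT, IL1A was lower than in WT RT cells by 1.78 log2 units in cells labelled IL1R1-KO (SE 0.10, limma adjusted p = 7.2e-06) and by 1.82 in IL1RAP-KO cells (limma adjusted p = 8.2e-06). IL1B was lower by 2.83 log2 units in cells labelled IL1R1-KO (SE 0.16, limma adjusted p = 5.5e-06) and by 2.57 in IL1RAP-KO cells (limma adjusted p = 1.3e-05). Both comparisons use the same WT RT libraries. In each, 2 of the 4 tested members were called lower and 0 higher, where 1.95% (IL1R1-KO) and 2.08% (IL1RAP-KO) of all tested genes were called lower, and 1.16% (IL1R1-KO) and 0.804% (IL1RAP-KO) higher. Without IL1RAP-KO RT replicate 2, the library with the highest mitochondrial share, the IL1RAP-KO differences were -1.85 for IL1A and -2.41 for IL1B, and both remained called. The mitochondrial share was 40.6 to 41.2% with the IL1R1-KO label, 45.1 to 57.0% in IL1RAP-KO cells and 36.9 to 38.3% in WT cells, all after RT. IL1B is also made by myeloid cells. The summed leukocyte markers were at 56.5 to 65.6 TPM with the IL1R1-KO label, 23.5 to 38.4 TPM in IL1RAP-KO cells and 45.4 to 73.5 TPM in WT cells after RT, most of it CD14, while PTPRC, the pan-leukocyte marker CD45, did not exceed 0.30 TPM in any library. The part of either in the agonist results was not tested.

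The untreated KO libraries also had less agonist mRNA than untreated WT libraries. IL1A differed from WT cells by -0.84 log2 units in cells labelled IL1R1-KO (SE 0.10, limma adjusted p = 0.0086) and by -0.81 in IL1RAP-KO cells (limma adjusted p = 0.022), short of the fold threshold, with adjusted p-values of up to 0.31 over the alternatives. For IL1B the differences were -0.98 in cells labelled IL1R1-KO (SE 0.16, limma adjusted p = 0.051) and -0.91 in IL1RAP-KO cells (limma adjusted p = 0.12). In both comparisons 0 of 4 members were called, where 0.137% (IL1R1-KO) and 0.098% (IL1RAP-KO) of tested genes were called in either direction, and 2 of the 4 had an unadjusted limma p under 0.05.

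The KO lines were also set against each other. For IL1A the difference, IL1R1-KO minus IL1RAP-KO, was -0.03 log2 units without RT (95% interval -0.25 to 0.20) and 0.04 after RT (95% interval -0.18 to 0.27). For IL1B it was -0.07 without RT (95% interval -0.42 to 0.28) and -0.26 after RT (95% interval -0.61 to 0.08). No member was called in either state, where 0.0261% of genes without RT and 0.0719% after RT were called, and the number of members with an unadjusted limma p under 0.05 was 0 without RT and 2 after RT. The intervals allow IL1A differences of up to about 0.27 log2 units in size and do not show that the lines were alike.

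The antagonist IL1RN, lower in TPM than either agonist in every library, had a different order of groups. It had 5.90 and 6.37 scaled TPM in cells labelled IL1R1-KO after RT, 3.10 and 5.10 in IL1RAP-KO cells after RT, and 2.99 and 3.85 in WT cells after RT. Without RT, the levels were 1.25 and 1.51 with the IL1R1-KO label, 2.48 and 2.07 in IL1RAP-KO cells, and 1.66 and 1.77 in WT cells. Irradiated libraries were above the untreated ones of the same genotype in all 3 genotypes. Of the 6 groups, neighbours in order of level did not overlap except IL1RAP-KO RT and WT RT cells. With 2 libraries per group, such separation alone does not show a difference. Untreated cells with the IL1R1-KO label differed from untreated WT cells by -0.19 log2 units (95% interval -0.65 to 0.27). For untreated IL1RAP-KO cells the difference was 0.27 (95% interval -0.19 to 0.73). Neither was called and both intervals include no change, so the order of the untreated genotypes is not read as a result.

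IL1RN rose with RT in cells labelled IL1R1-KO, by 1.58 log2 units (SE 0.21, limma adjusted p = 0.00017), the only member called there, where 7.97% of tested genes were called higher. The change with RT was 0.61 in IL1RAP-KO cells (SE 0.21, limma adjusted p = 0.032) and 0.70 in WT cells (limma adjusted p = 0.021), both under a fold of 2. When IL1RAP-KO RT replicate 2 was left out, which held the higher IL1RAP-KO value, the change in IL1RAP-KO cells was 0.33 (limma adjusted p = 0.21). The response in cells labelled IL1R1-KO minus that in WT cells was 0.89 (limma adjusted p = 0.15), so the responses were not shown to differ. After RT, IL1RN differed from WT RT cells by 0.70 log2 units in cells labelled IL1R1-KO (SE 0.21, limma adjusted p = 0.057) and by 0.18 in IL1RAP-KO cells (limma adjusted p = 0.58). The IL1R1-KO label minus IL1RAP-KO after RT gave 0.51 (95% interval 0.05 to 0.97, limma adjusted p = 0.30).

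IL1RN is also expressed in differentiating keratinocytes, and the summed TPM of 11 keratinocyte differentiation markers, of which 6 passed the filter and LORICRIN was at 0, is therefore given beside it. That sum was 107 to 119 in cells labelled IL1R1-KO after RT, 59.2 to 85.1 in IL1RAP-KO cells after RT, and 64.9 to 68.1 in WT cells after RT. In untreated cells it was 44.2 to 66.9 with the IL1R1-KO label, 60.3 to 65.0 in IL1RAP-KO cells and 64.0 to 71.5 in WT cells. The group with the highest IL1RN thus had the highest sum, in which KRT10 and TGM1 weighed most (56.6 and 33.8 TPM on average). The median change of the 6 tested markers with RT had another order. It was 0.75 log2 units with the IL1R1-KO label, 0.53 in IL1RAP-KO cells and 0.996 in WT cells. Against WT RT cells the median was 0.36 with the IL1R1-KO label and -0.25 in IL1RAP-KO cells. The part of these genes in the IL1RN result was not tested.

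**Figure D3:**
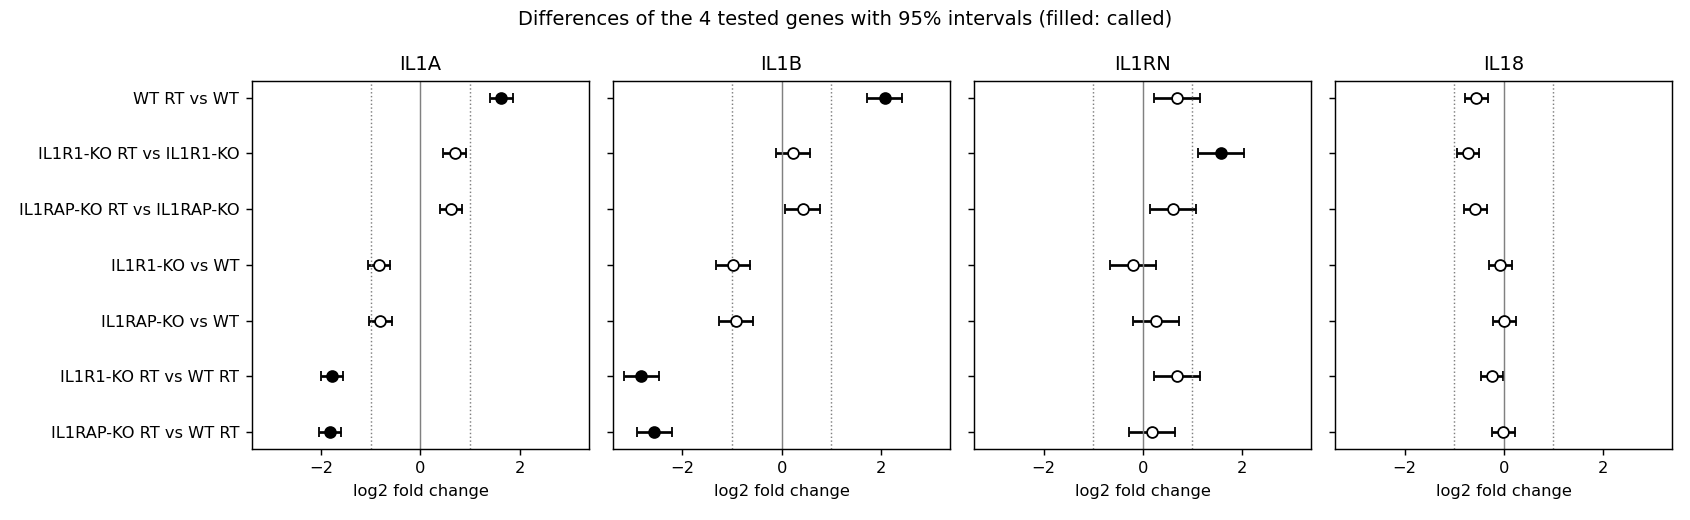
Log2 fold changes (x axes) of IL1A, IL1B, IL1RN and IL18 in 7 comparisons (rows), with 95% intervals from limma, a solid line at 0 and dotted lines at a fold of 2. Filled points are called differences: IL1A and IL1B in WT RT against WT cells and in both KO lines after RT against WT RT cells, and IL1RN in cells labelled IL1R1-KO with RT (1.58).

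Because agonists and antagonist compete for the same receptor, the TPM of IL1A plus IL1B was divided by that of IL1RN in each library, as a description with no test. The ratio was 9.53 and 10.7 in cells labelled IL1R1-KO after RT, 20.2 and 12.2 in IL1RAP-KO cells after RT, and 84.2 and 67.1 in WT cells after RT. Without RT it was 31.9 and 26.7 with the IL1R1-KO label, 15.6 and 21.1 in IL1RAP-KO cells, and 43.4 and 43.8 in WT cells. The ratio after RT was above that without RT in WT cells, below it in cells labelled IL1R1-KO, and overlapped with it in IL1RAP-KO cells. These are mRNA ratios, and protein, cleavage and release were not measured here.

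The balance of the agonists also differed between groups. IL1A mRNA exceeded IL1B mRNA in every library, by 5.73 and 5.66 times in TPM in cells labelled IL1R1-KO after RT, 3.93 and 5.21 times in IL1RAP-KO cells after RT, and 2.58 and 2.52 times in WT cells after RT. In untreated cells the ratio was 4.93 and 3.56 with the IL1R1-KO label, 3.98 and 4.11 in IL1RAP-KO cells, and 3.68 and 3.52 in WT cells. The WT RT libraries had the lowest ratios of the 12.

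**Figure D4:**
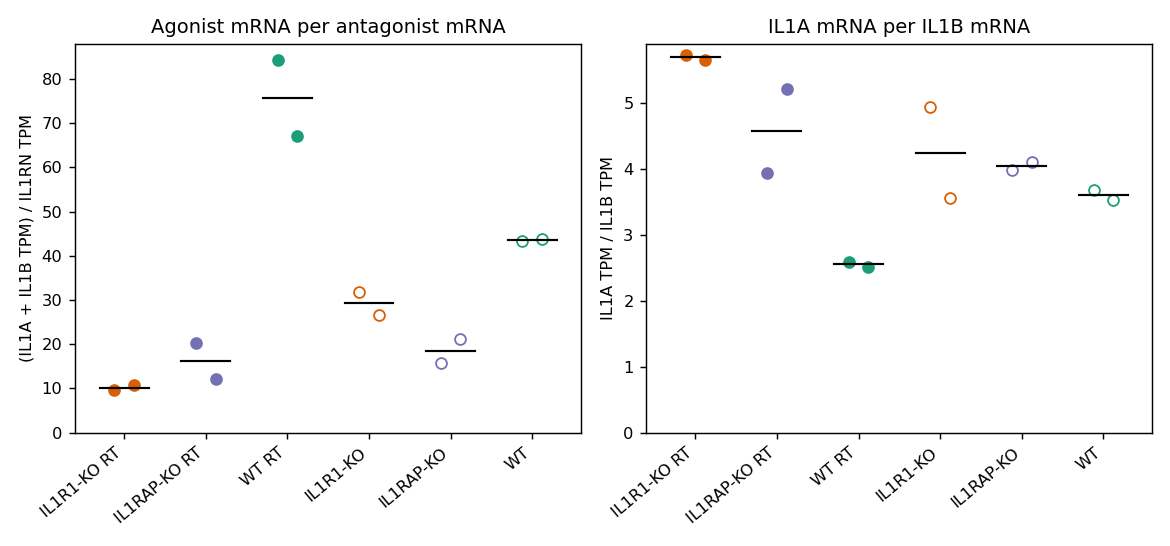
Ratios of TPM in each library (y axes, starting at 0) by group (x axes), with lines at the mean of 2 libraries. Left, IL1A plus IL1B per IL1RN, highest in WT RT cells (84.2 and 67.1) and lowest in cells labelled IL1R1-KO after RT (9.53 and 10.7). Right, IL1A per IL1B, lowest in WT RT cells (2.58 and 2.52).

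IL18, a precursor cytokine that epithelial cells make constitutively, was the most abundant member in 10 of 12 libraries. It had 106 and 127 scaled TPM in cells labelled IL1R1-KO after RT, 127 and 146 in IL1RAP-KO cells after RT, and 145 and 129.7 in WT cells after RT. Without RT, it had 187 and 196 scaled TPM with the IL1R1-KO label, 201 and 204 in IL1RAP-KO cells, and 201 and 203 in WT cells. All 6 irradiated libraries lay below all 6 untreated ones.

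The difference of IL18 with RT was -0.72 log2 units in cells labelled IL1R1-KO (SE 0.10, limma adjusted p = 0.00029), -0.57 in IL1RAP-KO cells (limma adjusted p = 0.0012) and -0.55 in WT cells (limma adjusted p = 0.0018), all short of a fold of 2. With libraries scaled to the sum of nuclear genes, the difference was -0.26 in cells labelled IL1R1-KO (limma adjusted p = 0.036) and -0.20 in IL1RAP-KO cells (limma adjusted p = 0.095). Under that scaling the median change of all tested genes was itself 0.38 with the IL1R1-KO label and 0.30 in IL1RAP-KO cells. After RT, IL18 differed from WT RT cells by -0.24 log2 units in cells labelled IL1R1-KO (limma adjusted p = 0.17) and by -0.01 in IL1RAP-KO cells (limma adjusted p = 0.96). IL18 made up 62.8 and 62.8% of the summed TPM of the 8 members in cells labelled IL1R1-KO after RT, 65.7 and 68.3% in IL1RAP-KO cells after RT, and 36.0 and 33.1% in WT cells after RT, where IL1A took 45.2 and 47.1%. In untreated cells its share was 82.0 and 82.4% with the IL1R1-KO label, 82.99 and 81.7% in IL1RAP-KO cells, and 73.0 and 71.9% in WT cells.

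The remaining members were at or near the lower end of the table. IL36G, an agonist of the IL-36 receptor known from stressed epithelia, had 0.71 and 0.30 TPM as deposited in cells labelled IL1R1-KO after RT, 0.16 and 0.29 in IL1RAP-KO cells after RT, and 1.87 and 0.75 in WT cells after RT. It was listed at 0 in all untreated libraries except WT replicate 1 (0.10 TPM). IL36G was thus listed above 0 in all 6 irradiated libraries and in 1 of 6 untreated ones, and both WT RT values were above those of both KO lines after RT. More genes of any kind were listed above 0 after RT, 20987 to 22452 per irradiated library against 19576 to 20091 per untreated one. The detection count of IL36G is therefore not read as particular to it. In a limma fit without the filter (30580 genes), its change with RT was 0.53 log2 units in cells labelled IL1R1-KO (adjusted p = 0.17), 0.34 in IL1RAP-KO cells (adjusted p = 0.37) and 1.17 in WT cells (SE 0.23, adjusted p = 0.0088). Against WT RT cells it differed by -0.71 in cells labelled IL1R1-KO after RT (limma adjusted p = 0.15) and by -0.90 in IL1RAP-KO cells after RT (limma adjusted p = 0.073). The unit keeps no read depth, so how many reads stand behind these values is unknown.

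**Figure D5:**
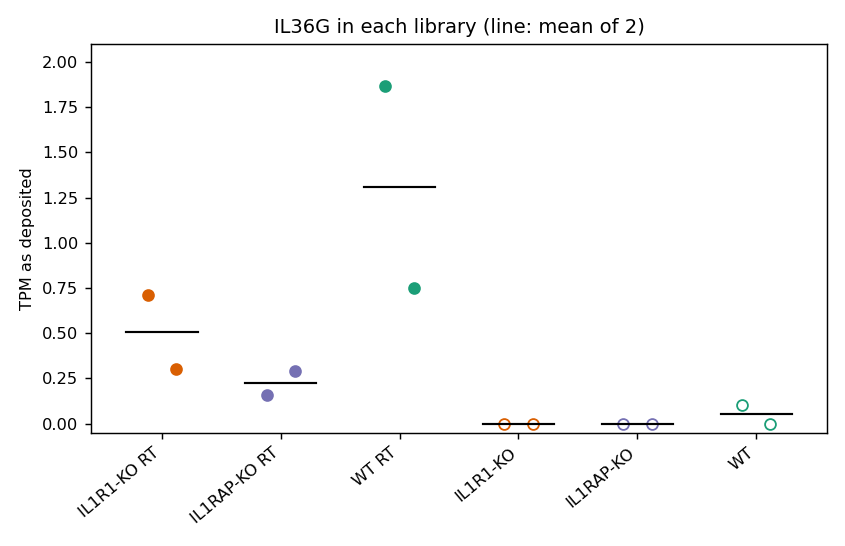
TPM of IL36G as deposited (y axis) in each library by group (x axis), with a line at the mean of 2 libraries. All 6 irradiated libraries are above 0, WT RT highest (1.87 and 0.75), and 5 of the 6 untreated libraries are listed at 0.

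IL33, the alarmin of the family, was above 0 in 7 of 12 libraries, at 0 and 0.21 TPM in cells labelled IL1R1-KO after RT, 0.06 and 0 in IL1RAP-KO cells after RT, and 0.10 and 0.09 in WT cells after RT. In untreated cells it had 0.05 and 0 TPM with the IL1R1-KO label, 0 and 0 in IL1RAP-KO cells, and 0.14 and 0.05 in WT cells. No order of groups is read from values this low. IL36B and its receptor's antagonist IL36RN were listed at 0 throughout. Of the other ligands of the family, IL36A and IL1F10 were listed at 0 in every library, and IL37, an anti-inflammatory member, had 0.33 TPM in IL1RAP-KO RT replicate 1, 0.26 TPM in WT RT replicate 2 and 0 elsewhere.

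The lists of other pathway genes that follow are read against the shares of all tested genes called. With RT these were 7.97% for higher calls and 8.35% for lower calls with the IL1R1-KO label, 8.09% higher and 9.33% lower in IL1RAP-KO cells, and 7.02% higher and 6.23% lower in WT cells. Among the receptors and binding proteins of the family, 7 of 11 were tested. In WT RT against WT cells, 1 was called higher and 1 lower (median 0.34 log2 units, against 0.00 over all tested genes). The higher one was IL1RL1, the IL-33 receptor, also the 1 gene of the list called with RT in each KO line (1.58 with the IL1R1-KO label and 1.52 in IL1RAP-KO cells). It had 5.05 ± 1.95 scaled TPM in WT RT cells and 0.292 ± 0.0658 in WT cells (SD, n = 2 each, log2 fold change 2.19, limma adjusted p = 6.7e-05). The lower one was IL1RAP (-1.09, limma adjusted p = 0.0025). SIGIRR, an inhibitory receptor (0.33), and IL18R1, the IL-18 receptor (0.34), were not called. Against WT RT cells, 0 of 7 were called in cells labelled IL1R1-KO, and 1 was higher in IL1RAP-KO cells, IL1R1 itself (1.02, limma adjusted p = 0.0046). Of all tested genes, 1.16% (IL1R1-KO) and 0.804% (IL1RAP-KO) were called higher in these comparisons. The shares called lower were 1.95% (IL1R1-KO) and 2.08% (IL1RAP-KO).

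Of the genes for processing and release, 16 of 24 were tested, and 2 were called higher and 0 lower in WT RT against WT cells (median -0.07 log2 units), beside 7.02% of all genes called higher. With RT, 0 were called in cells labelled IL1R1-KO and 1 was higher in IL1RAP-KO cells (CARD18, 1.48). CTSS, the lysosomal protease cathepsin S, had 2.69 ± 0.596 scaled TPM in cells labelled IL1R1-KO after RT, 1.501 ± 0.489 in IL1RAP-KO cells after RT, and 9.86 ± 0.226 in WT cells after RT, against 0.738 ± 0.345 in untreated WT cells (SD, n = 2 each). It was the 1 gene of this list called lower in each KO line against WT RT cells, by 1.57 log2 units with the IL1R1-KO label and by 2.13 in IL1RAP-KO cells (limma adjusted p = 0.0019 and 0.00035 for these differences). Of all tested genes, 1.95% (IL1R1-KO) and 2.08% (IL1RAP-KO) were called lower there. CARD18, an inhibitor of caspase-1 activation, was higher in WT RT than in WT cells (1.23, limma adjusted p = 0.011). The abundant ANXA2, an annexin (-0.62), and CAPNS1, the calpain small subunit (-0.11), were not called. CASP1, the caspase that cleaves IL-1β and IL-18, averaged 31.2 ± 0.114 scaled TPM in WT RT cells and 53.5 ± 6.61 in WT cells (SD, n = 2 each, log2 fold change -0.75, limma adjusted p = 0.0027, short of the fold threshold), and was named after its values were seen.

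Of the 14 listed genes of the signal relay below the receptor, 13 were tested and 1 was called higher in WT RT against WT cells, beside 7.02% of all genes, and 1 with RT in each KO line, IRAK2 every time. IRAK2, a kinase-like adaptor of the receptor complex, had 4.18 ± 0.472 scaled TPM in cells labelled IL1R1-KO after RT, 5.16 ± 1.14 in IL1RAP-KO cells after RT, and 28.7 ± 1.503 in WT cells after RT, against 4.63 ± 0.186 in untreated WT cells (SD, n = 2 each). It was called higher in WT RT against WT cells (2.40, limma adjusted p = 3.5e-06) and lower in both KO lines against WT RT cells (-2.52 with the IL1R1-KO label and -2.28 in IL1RAP-KO cells). Without RT it was also called lower against WT cells, at -1.45 with the IL1R1-KO label and -1.06 in the IL1RAP-KO line. TAB2 and IRAK1, which act in the same relay, were not called.

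Among transcription factors and feedback genes, 15 of 16 were tested. With RT, 3 were called higher in cells labelled IL1R1-KO, 2 in IL1RAP-KO cells and 3 in WT cells (median 0.57 log2 units in WT cells), and 0 lower, beside 7.97, 8.09 and 7.02% of all genes called higher. Against WT RT cells 0 were higher and 6 lower, both with the IL1R1-KO label (median -0.49, beside 1.95% of all genes called lower) and in IL1RAP-KO cells (median -0.52, beside 2.08%). Against untreated WT cells, 2 were lower in each untreated KO line, RELB and TNFAIP3. Of all tested genes, 0.118% (IL1R1-KO) and 0.098% (IL1RAP-KO) were called lower there. The genes called with RT were NFKBIZ and TNFAIP3, a feedback inhibitor of NF-κB, in every line, with JUN, an AP-1 subunit, for the IL1R1-KO label and NFKB2 in WT cells. NFKBIZ, an inducible NF-κB cofactor, was 2.52 log2 units higher in WT RT than in WT cells, and differed from WT RT cells by -1.88 with the IL1R1-KO label and -1.65 in IL1RAP-KO cells. NFKB2, an NF-κB subunit, was 1.21 higher in WT RT than in WT cells and differed from WT RT cells by -1.58 in each KO line. RELB, another NF-κB subunit, differed from WT RT cells by -1.46 with the IL1R1-KO label and -1.69 in IL1RAP-KO cells, and NFKBIA, the inhibitor of NF-κB, by -1.41 with the IL1R1-KO label and -1.08 in IL1RAP-KO cells. CEBPB and CEBPD were not called. Of 16 genes known as IL-1 targets, a list chosen with results of these data known, 13 were tested. With RT, 5 were called higher and 1 lower with the IL1R1-KO label (median 0.81 log2 units), 6 higher and 1 lower in IL1RAP-KO cells (median 0.56), and 10 higher and 0 lower in WT cells (median 2.58). The lower ones were CSF3 for the IL1R1-KO label (-1.09) and CCL20 in IL1RAP-KO cells (-1.44). Against WT RT cells, 11 were lower with the IL1R1-KO label (median -3.47, beside 1.95% of all genes) and 11 in IL1RAP-KO cells (median -3.34, beside 2.08%). Against untreated WT cells, 6 were lower in each untreated KO line, beside 0.118% of all genes called lower with the IL1R1-KO label and 0.098% in IL1RAP-KO cells. PTGS2 and IL6, also in the list, were not called in these comparisons.

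For each member whose 6 group means spanned at least 1 log2 unit, the 3 genes with the most similar profile over the 12 libraries were found by the root mean square difference of centred log2 levels. For IL1A, with a span of 2.47, these were ZC3H12C (0.20), SDR16C5 (0.23) and LAMB3 (0.24), the last a laminin chain of the basal epithelial marker list. For IL1B, with a span of 3.06, they were TNIP3 (0.26), an inhibitor of NF-κB activation, CXCL3 (0.27), a neutrophil chemokine, and SERPINA3 (0.28), an acute-phase protease inhibitor. SERPINA3 averaged 102 scaled TPM in cells labelled IL1R1-KO after RT, 152 in IL1RAP-KO cells after RT, 1228 in WT cells after RT and 192 in untreated WT cells. For IL1RN, with a span of 1.58, they were SERPINB2 (0.15), a urokinase inhibitor, the noncoding RNA gene JPX (0.19) and AC112220.2 (0.19). SERPINB2 shared the order of IL1RN after RT, with 8.50 scaled TPM with the IL1R1-KO label, 5.00 in IL1RAP-KO cells and 3.26 in WT cells. IL18 spanned 0.80 and was not matched.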

How the data were processed

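Per the labels and the study's methods, stranded libraries were made after removal of ribosomal RNA, and the authors used cutadapt 1.15, STAR 2.5.3a, HTSeq and DESeq2. The values deposited by the authors and used here are TPM for 60675 genes. The tables of single libraries held the same values. TPM keep no read depth, so no counting interval or detection floor is given. The deposited gene IDs were matched to GENCODE release 44 (60419 matched).

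Genes with at least 1 TPM in at least 2 libraries were kept (15303). TPM were divided by unweighted trimmed mean factors (30% of log ratios and 5% of mean levels trimmed at each end, factors 0.747 to 1.11), and log2 of scaled TPM plus 1 was fitted with limma 3.58.1 in R 4.3.3 over 6 group means (6 residual and 3.73 prior degrees of freedom). The fit was tested on simulated data. Adjusted p-values are Benjamini-Hochberg values over all genes tested. The 11 comparisons are RT against untreated cells, KO against WT cells, KO lines against each other, and differences between responses. Nothing beyond the label of biological replicates says how libraries arose, so p-values measure the spread between these samples.

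The members and gene lists were chosen with earlier results of these data known. All members are named, as are up to 4 called genes of each list with the smallest adjusted p, up to 2 abundant others, and the 3 most similar genes per member. The alternatives were other scalings, a pseudocount of 0.1, no filter, the lower fold of the study's methods, only the compared libraries, a replicate block and leaving out each library.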

Additional observations from a re-analysis of the deposited data

Results flagged for a closer look

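For 3 results the response to RT in a KO line differed from the response in WT cells by a test of the difference itself, past both thresholds. For IL1B the response in cells labelled IL1R1-KO minus that in WT cells was -1.84 log2 units (limma adjusted p = 0.0027), and the response in IL1RAP-KO cells minus that in WT cells was -1.65 (limma adjusted p = 0.0088). For IL1A the IL1RAP-KO response minus the WT response was -1.01 (limma adjusted p = 0.010). That call was kept in 14 of 20 alternative settings. It was lost with nuclear-sum scaling (-0.75) and on leaving out some single libraries. The corresponding IL1A value for the IL1R1-KO label, -0.94, passed the adjusted threshold (limma adjusted p = 0.0095) but not the fold of 2, and its adjusted p was 0.059 without WT replicate 1 and 0.099 with TPM as deposited, so the KO lines were not shown to differ in it. The WT libraries are shared by all of these tests.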

How the results depend on the processing

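TPM keep no depth, so which small differences of IL36G, IL33 and IL1RN the reads could show is unknown. Over single-gene results of the 4 tested members, leaving out 1 library kept direction and side of the thresholds in 508 cases, changed direction in 13 and changed the call in 7 (5 lost, 2 gained), and the other settings kept 330, changed direction in 9 and changed the call in 13 (1 lost, 12 gained). With TPM as deposited the median of all genes lay at -0.28 to 0.30 log2 units over the comparisons, with nuclear-sum scaling at 0.00 to 0.38, and changes are to be read relative to it. No change of direction below concerned a called result, and the cause was not tested.

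With the lower fold threshold of the study's methods, 4 members were called in WT RT against WT cells, 3 in each KO line with RT, 1 in each untreated KO line against WT cells and 2 in the IL1R1-KO difference between responses. With nuclear-sum scaling, 2 were called in cells labelled IL1R1-KO with RT (IL1A at 1.14), 2 in the IL1R1-KO difference between responses (IL1RN at 1.18) and 1 in the IL1RAP-KO difference (IL1A at -0.75). The shares of all genes called that are given above belong to the main fit, and a lower fold cannot call fewer genes. Member counts under these alternatives are therefore not read as results about the members. Leaving out 1 library, the counts ranged over 0 to 1 for untreated IL1R1-KO against WT cells (1 without IL1R1-KO replicate 2, IL1B at -1.16), 1 to 2 for the IL1R1-KO difference between responses (2 without IL1R1-KO RT replicate 2, IL1A at -1.08) and 1 to 2 for the IL1RAP-KO difference.

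Over 15 pairs of groups, the deviations of libraries with the same number correlated at -0.06 to 0.09, so no pairing was seen. A fit with the replicate number as a block (replicate block) called 2 members in WT RT against WT cells, as without it, and changed no member's call. The share of all genes called in IL1R1-KO RT against IL1RAP-KO RT cells moved to 0.0392%.

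Directions changed with TPM as deposited for IL18 in IL1R1-KO RT against WT RT cells (0.031), in IL1R1-KO RT against IL1RAP-KO RT cells (0.13) and in the IL1R1-KO difference between responses (0.13), and for IL1B in IL1R1-KO RT against IL1RAP-KO RT cells (0.063). With nuclear-sum scaling they changed for IL18 in IL1R1-KO RT (0.11) and IL1RAP-KO RT (0.26) against WT RT cells and in the IL1R1-KO (0.19) and IL1RAP-KO (0.25) differences between responses, and for IL1RN in the IL1RAP-KO one (0.14). Leaving out 1 library, the values whose direction could change ranged from -0.00045 to 0.021 for IL18 in IL1RAP-KO against WT cells, from -0.11 to 0.092 for IL18 and -0.10 to 0.47 for IL1RN in IL1RAP-KO RT against WT RT cells, from -0.12 to 0.058 for IL1A and -0.24 to 0.10 for IL1B in IL1R1-KO against IL1RAP-KO cells, from -0.091 to 0.18 for IL1A in the same lines after RT, and, in the IL1RAP-KO difference between responses, from -0.37 to 0.20 for IL1RN and -0.12 to 0.082 for IL18.

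Levels as deposited moved past 1 SD for IL1A (43.3 TPM in IL1RAP-KO RT, 164 in WT RT, 34.2 in IL1R1-KO and 63.0 in WT cells), IL1B (64.5 in WT RT, 8.74 in IL1RAP-KO and 17.5 in WT cells), IL1RN (6.65 in IL1R1-KO RT and 1.85 in WT cells) and IL18 (115 in IL1RAP-KO RT, 123 in WT RT, 203 in IL1R1-KO, 217 in IL1RAP-KO and 217 in WT cells). IL1RN per IL1B alone was 0.664 in IL1R1-KO RT, 0.376 in IL1RAP-KO RT, 0.0475 in WT RT, 0.179 in IL1R1-KO, 0.280 in IL1RAP-KO and 0.106 in WT cells, against 0.0992, 0.0656, 0.0134, 0.0344, 0.0557 and 0.0229 per IL1A plus IL1B in the same order.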
